A study of Mus musculus with 4 samples.

Results

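The genes described here are 10 that mark squamous differentiation and cornification in the skin and other stratified epithelia: Ly6d, Anxa8, Sfn, Trim29, Ripk4, Ivl, Sprr1a, Evpl, Ppl and Tgm1. They were taken as a named list, and a probe set was used where its annotation gave exactly 1 of these symbols. All 10 were found, on 11 of the 35512 probe sets of the array, among 19938 genes named by a single symbol. The cells were mouse embryonic fibroblasts (MEFs) of C57BL/6 background, prepared at E13.5 and transformed with SV40, and every group lacked BAX and BAK, the effectors that open the outer mitochondrial membrane in apoptosis. The 4 groups were p63-transduced cells treated with etoposide, p63-transduced cells mock-treated, GFP-transduced cells treated with etoposide and GFP-transduced cells mock-treated, each for 6 h. Retroviruses carried p63, a p53-family transcription factor, or GFP as the control. The sources used here give neither the promoter that drives them nor the p63 isoform or the number of clones. The labels give 10 µg/mL for etoposide, a topoisomerase II poison, in one field and the same number per microlitre in others.

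In stratified epithelium, basal cells divide on the basement membrane and their daughters move outwards and cornify. During cornification, precursor proteins such as involucrin and the small proline-rich proteins are cross-linked by transglutaminases onto a scaffold of plakins under the plasma membrane, which gives the cornified envelope. p63 is required for stratified epithelia to form, and several of the genes described here are known p63 targets in keratinocytes. Fibroblasts do not normally build an envelope.

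Expression is given as the log2 RMA signal, and a difference of 1 stands for a 2-fold change. Each group held 1 array, so differences carry neither a replicate check nor an error, and no comparison was tested. A difference of 1 or more in size is referred to as a call, higher or lower. A gene was kept by the brightness filter where at least 1 array reached 5.87, the 50th percentile over singly annotated probe sets, which left 10698 genes. A reading below 5.87 is referred to as dim, and a fold against a dim reading is a lower bound, taken with that reading raised to 5.87. Of the 10 genes, 6 were kept: Ly6d, Anxa8, Sfn, Ripk4, Evpl and Sprr1a. Ripk4 passed only through the array of etoposide-treated p63 cells. Trim29, Ivl, Ppl and Tgm1 were dim on all 4 arrays. Signal strength differs between probe sets, so levels are compared within a gene and not between genes.

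Trp63 read 9.29 with etoposide and 8.75 with mock treatment in p63 cells, against 5.59 and 4.87 in GFP cells. Of 16 fibroblast markers, 12 were kept, with Dcn, Lum, Pdgfra and Thy1 dim on all arrays, and Prrx1, higher by 1.27 under mock treatment, was the 1 called in either p63 comparison. Under mock treatment 2.42% of genes kept were called higher and 3.76% lower. The summed linear signal of the 16 fibroblast markers was 19614 and 19446 in etoposide- and mock-treated p63 cells, against 20985 and 24308 in GFP cells. Of 10 markers of basal epithelium, all were kept and 7 were called higher in p63 cells under both treatments: Krt5, Krt14, Krt17, Itga6, Itgb4, Lamb3 and Lama3. Of all genes kept, 0.925% were so called, and of all 19938 genes, 101 were. Krt5, Krt14, Krt15, Krt17, Lama3 and Col17a1 were dim on both GFP arrays and were kept only through the p63 arrays. That all were kept, and the count beside the share of genes kept, thus partly follow from the filter. With dim readings raised, Krt17, Itgb4 and Lama3 no longer reached 1 under mock treatment, at 0.53, 0.95 and 0.16. Lama3 did not reach it under etoposide either, at 0.60. The sum for this list was 4710 and 4943 in p63 cells, against 1170 and 786 in GFP cells. Among 12 markers of simple epithelium, Cdh1 and Epcam were dim on all arrays, and the summed signal of the list was 1927 and 1646 in p63 cells, against 650 and 466 in GFP cells. Krt19 carried that difference, and the other 11 summed to 443 and 512 in p63 cells, against 471 and 365 in GFP cells. None of 11 haematopoietic markers was kept, and their sum lay between 210 and 243 on all arrays. In cultures measured in bulk, fewer cells of a type and less RNA per cell cannot be told apart, and the part of such markers in the results below was not tested. The median of the genes kept was 7.68 and 7.48 in etoposide- and mock-treated p63 cells, against 7.60 and 7.69 in GFP cells.

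Of the 10 genes, Ly6d and Anxa8 differed most between p63 and GFP cells. Ly6d and Anxa8 were higher in p63 cells by 10.5-fold and 5.49-fold under etoposide and, with dim readings raised, by at least 4.31-fold and by 14.99-fold under mock treatment. Sfn was called higher in mock-treated p63 cells by its brighter probe set and not by its other one. Ripk4 was called there from dim readings only, and its difference was 0.00 with these raised. The precursors Ivl and Sprr1a, the plakins Evpl and Ppl and the cross-linking enzyme Tgm1 differed by at most 0.54 in size under either treatment, and of these Ivl, Ppl and Tgm1 were dim on every array, so a difference in them may lie below what the arrays can show.

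With etoposide 2 of the 10 genes were called higher with p63, where 1.38% of the 10698 genes kept and 0.777% of all 19938 genes were. None of the 10 was called lower, where 0.514% of genes kept were. With mock treatment 4 of the 10 were called higher, beside 2.42% of genes kept and 1.67% of all genes, and 0 lower, beside 3.76% of genes kept. With dim readings raised, the 4 became 3, without Ripk4, beside 192 of the 10698 genes kept. The 2 genes called under both treatments were Ly6d and Anxa8, where 0.925% of genes kept were so called. The median difference over the 10 genes was 0.26 with etoposide and 0.67 with mock treatment, beside -0.03 and 0.03 for all 19938 genes. Both p63 arrays lay above both GFP arrays for 4 of the 10 genes, Ly6d, Anxa8, Sfn and Ripk4, beside 12.9% of genes kept and 14.2% of all genes. With dim readings raised this held for 3, beside 1297 of the 10698 genes kept. The 3 were without Ripk4, which was kept only through its highest p63 array. Ppl was the 1 gene with both p63 arrays below both GFP arrays, by a gap of 0.06, beside 21.2% of genes kept and 16.9% of all genes, and cyclic loess scaling turned its difference under etoposide, from -0.07 as deposited to 0.04. Both p63 comparisons use the same pair of lines, so another difference between these lines cannot be told apart from p63.

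**Figure D1:**
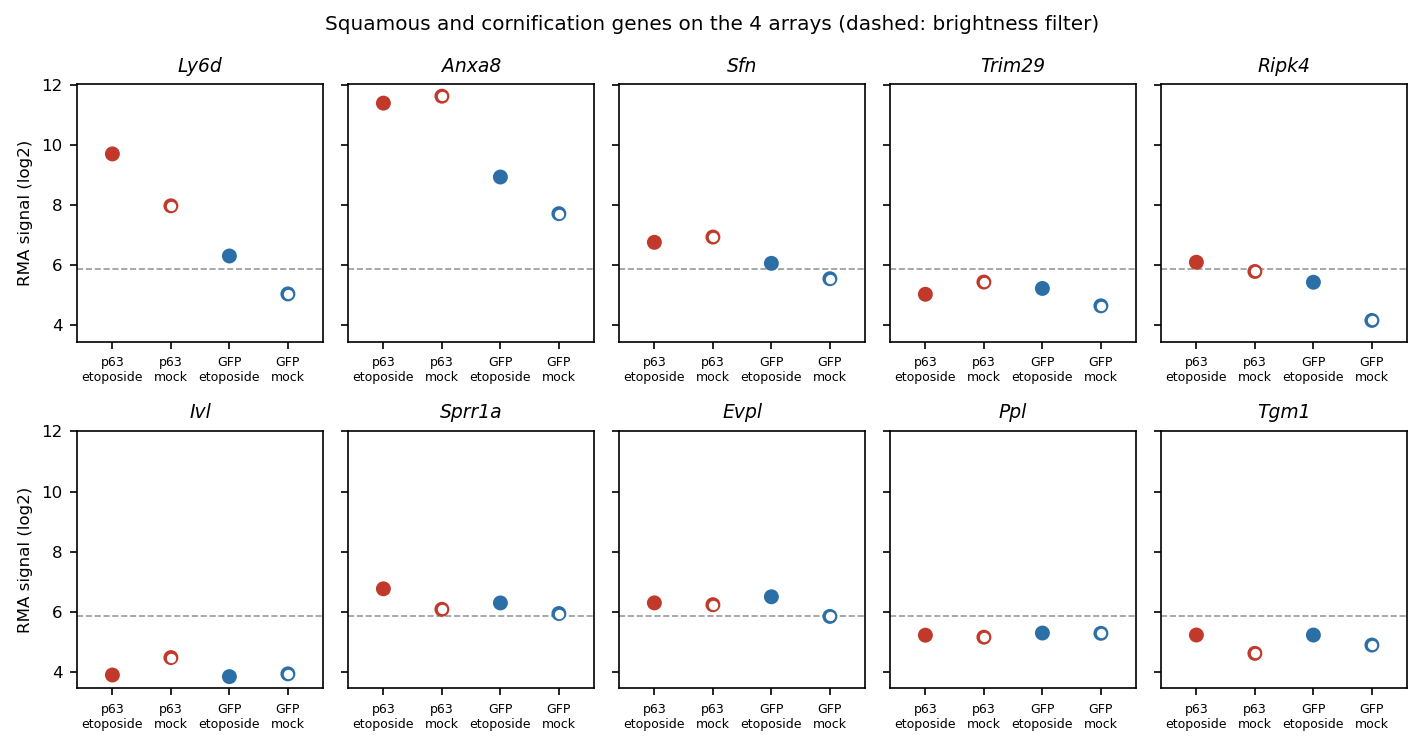
RMA signal (log2) of each of the 10 genes on the 4 arrays, with p63 cells in red, GFP cells in blue, etoposide as filled and mock treatment as open circles, and the brightness filter of 5.87 as a dashed line. Ly6d and Anxa8 stand apart in p63 cells, while Trim29, Ivl, Ppl and Tgm1 lie under the line on every array.

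Ly6d encodes a GPI-anchored surface protein of the Ly6 family, found on keratinocytes of stratified epithelia and on early B-lineage cells. Its signal was 9.70 with etoposide and 7.98 with mock treatment in p63 cells, against 6.31 and 5.05 in GFP cells. The p63 arrays did not overlap the GFP arrays, with 1.67 between the lower p63 and the higher GFP reading. The difference was 3.39, or 10.5-fold, in etoposide-treated cells, and 2.93 in mock-treated cells, where the dim GFP reading gives at least 4.31-fold. Of the 10698 genes kept, Ly6d ranked 7 by its difference in etoposide-treated cells. The haematopoietic markers Cd79a and Ptprc stayed dim on all arrays, at most at 3.52 and 4.07. Of 16 other Ly6 family genes measured, 6 were kept, and 1 was called in either p63 comparison, Ly6e, with -0.08 under etoposide and -1.21 under mock treatment. Under mock treatment 2.42% of genes kept were called higher and 3.76% lower.

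Anxa8 encodes annexin A8, a calcium-dependent phospholipid-binding protein that is prominent in stratified epithelium. It read 11.39 with etoposide and 11.62 with mock treatment in p63 cells, against 8.94 and 7.72 in GFP cells. All 4 readings were above the filter, and the lower p63 reading was 2.46 above the higher GFP reading. The p63 difference was 2.46, or 5.49-fold, in etoposide-treated cells and 3.91, or 14.99-fold, in mock-treated cells. By these differences Anxa8 ranked 13 and 8 of the genes kept, a rank in which genes with dim readings take part as deposited. Of 11 other annexins measured, 9 were kept and 0 were called in either p63 comparison, with medians of 0.26 under etoposide and 0.01 under mock treatment. Of all genes kept, 1.38% were called higher and 0.514% lower under etoposide, and 2.42% and 3.76% under mock treatment. Beside such shares, 0 of 9 does not set these annexins apart from other genes.

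Sfn encodes 14-3-3 sigma, an adaptor that holds phosphorylated partners, promotes arrest before mitosis and is a p53 target in several cell types. Its brighter probe set read 6.76 with etoposide and 6.94 with mock treatment in p63 cells, against 6.07 and 5.56 in GFP cells. The arrays of p63 cells lay above those of GFP cells, by 0.70 under etoposide and 1.38 under mock treatment. With the dim mock-treated GFP reading raised, the second of these was 1.07, or at least 2.10-fold. A second probe set annotated to Sfn gave smaller differences of 0.48 under etoposide and 0.81 under mock treatment, neither of which reached 1. The 6 other 14-3-3 genes were all kept and none was called in either p63 comparison. Under mock treatment 2.42% of genes kept were called higher and 3.76% lower, so 0 of 6 does not set these genes apart from others. The differences of the 6 lay between -0.66 for Ywhab and 0.08 for Ywhah in mock-treated cells.

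Ripk4 encodes a RIP-family kinase required for epidermal differentiation in mice. It read 6.10 with etoposide and 5.80 with mock treatment in p63 cells, against 5.44 and 4.17 in GFP cells. Only the first of these 4 readings passed the filter. The difference was 0.67 under etoposide and 1.63 under mock treatment. With dim readings raised these came to 0.23 and 0.00, so the call in mock-treated cells rests on signal near background. Trim29, a TRIM protein of squamous epithelia that lacks the RING domain of most of its family, read 5.04 with etoposide and 5.44 with mock treatment in p63 cells, against 5.23 and 4.65 in GFP cells. Its p63 difference was -0.19 under etoposide and 0.79 under mock treatment, all from dim readings, and the groups overlapped. Of 4 other TRIM genes listed and kept, Trim25, an interferon-induced ubiquitin ligase, was called lower in p63 cells under both treatments, with differences of -1.21 under etoposide and -2.16 under mock treatment. With dim readings raised, the first of these was -0.90.

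**Figure D2:**
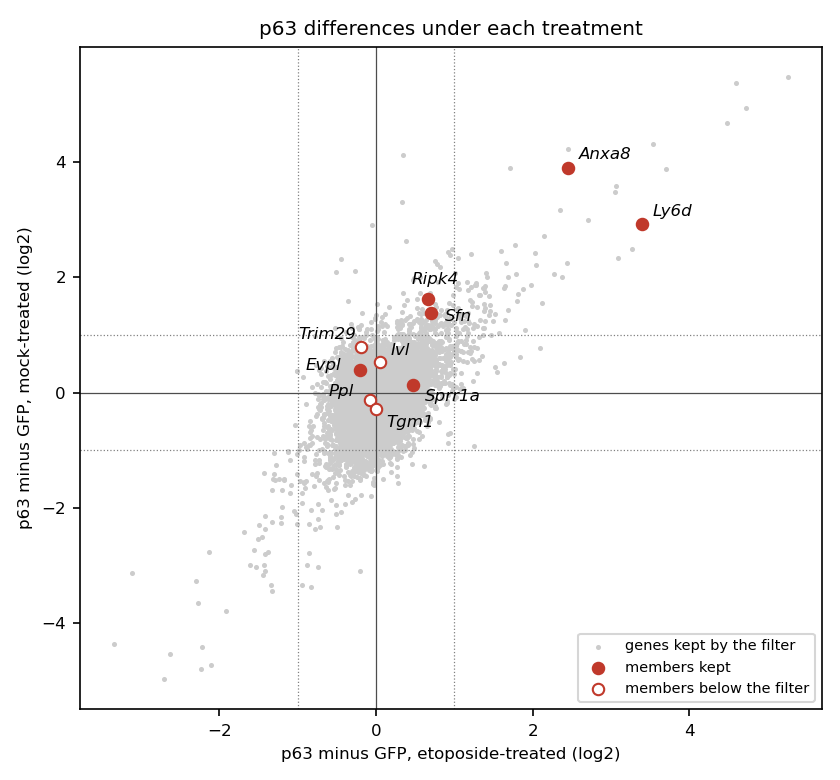
Difference between p63 and GFP cells (log2) in etoposide-treated cells (horizontal) and mock-treated cells (vertical) for the 10 genes (red, open where dim on all arrays) and the 10698 genes kept (grey), with dotted lines at a size of 1. Ly6d (3.39 and 2.93) and Anxa8 (2.46 and 3.91) lie beyond both lines, Sfn and Ripk4 beyond the mock line, and the others within them. With dim readings raised, Ly6d, Sfn and Ripk4 differ by 2.11, 1.07 and 0.00 in mock-treated cells.

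Ivl, the gene of involucrin, and Sprr1a, a small proline-rich protein gene, encode early precursors of the cornified envelope. Both lie in the epidermal differentiation complex on chromosome 3, with their starts 87854 bases apart in GRCm38.p6. Ivl was dim on every array, at 3.90 with etoposide and 4.48 with mock treatment in p63 cells, against 3.85 and 3.94 in GFP cells. Its p63 difference was 0.05 under etoposide and 0.54 under mock treatment. Sprr1a was above the filter on every array, at 6.76 with etoposide and 6.08 with mock treatment in p63 cells, against 6.30 and 5.94 in GFP cells. Its p63 difference was 0.47 under etoposide and 0.14 under mock treatment, and the lines overlapped. For this gene the arrays separated by treatment instead, with both etoposide arrays above both mock arrays. Small proline-rich genes are close copies of one another, so the signal may include related transcripts.

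Promoter sequences of 5 of the 10 genes were available from RefSeq (GRCm38.p6), as the 250 bases before the start. Those of Sprr1a and Ivl, the precursors that did not differ by 1, are shown because they held motif matches, beside those of Anxa8 and Sfn, which differed by 1 under at least mock treatment and held none. The promoters of Tgm1, the fifth gene, held none either. The motifs, read on both strands, were the AP-1 site TGANTCA, the TATA box TATAAA, the grainyhead-like site AACCGGTT and the p53 family half-site. Capitals mark matches, and no matches overlapped. The sequences lie at chr3:92485882-92486131 (minus strand, Sprr1a), chr3:92573736-92573985 (minus strand, Ivl), chr14:34085729-34085978 (plus strand, Anxa8) and chr4:133602169-133602418 (minus strand, Sfn), and are written 5′ to 3′ along the gene.
Sprr1a: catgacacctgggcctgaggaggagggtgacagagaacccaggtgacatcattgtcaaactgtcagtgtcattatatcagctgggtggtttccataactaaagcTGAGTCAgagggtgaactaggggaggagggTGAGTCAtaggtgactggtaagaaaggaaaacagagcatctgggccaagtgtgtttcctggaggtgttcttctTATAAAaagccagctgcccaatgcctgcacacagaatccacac
Ivl: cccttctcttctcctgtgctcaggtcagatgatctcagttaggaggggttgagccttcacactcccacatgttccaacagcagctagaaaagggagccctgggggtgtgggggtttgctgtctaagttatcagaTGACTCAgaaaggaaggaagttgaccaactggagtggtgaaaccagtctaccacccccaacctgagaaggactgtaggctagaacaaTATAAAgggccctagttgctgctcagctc
Anxa8: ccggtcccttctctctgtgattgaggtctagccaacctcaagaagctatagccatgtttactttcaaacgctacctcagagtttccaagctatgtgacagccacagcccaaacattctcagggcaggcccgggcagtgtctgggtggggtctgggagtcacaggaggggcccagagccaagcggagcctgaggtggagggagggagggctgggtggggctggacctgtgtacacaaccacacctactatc
Sfn: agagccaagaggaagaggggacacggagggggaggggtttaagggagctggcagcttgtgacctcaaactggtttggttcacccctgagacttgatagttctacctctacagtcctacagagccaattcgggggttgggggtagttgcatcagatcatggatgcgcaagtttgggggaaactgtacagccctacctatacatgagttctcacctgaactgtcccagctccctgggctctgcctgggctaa
Sprr1a held 2 AP-1 matches, starting at -146 and -116 from the start, and a TATA match at -43. Ivl held 1 AP-1 match at -116 and a TATA match at -29. AP-1 matches were present in 6.75% of all 32851 promoters of this length and TATA matches in 12.4%. The grainyhead-like site was in 0.116% and the p53 family half-site in 7.13% of all promoters, and neither was in those of the 5 genes. A match is a run of letters in this window and no evidence of binding, and the absence of one says nothing of the factor.

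Evpl and Ppl encode envoplakin and periplakin, plakins that pair with each other and form the first scaffold of the envelope. Evpl read 6.30 with etoposide and 6.24 with mock treatment in p63 cells, against 6.50 and 5.85 in GFP cells. The GFP readings enclosed the p63 readings, and the p63 difference was -0.20 under etoposide and 0.39 under mock treatment. Ppl was dim and flat, at 5.22 and 5.16 in p63 cells against 5.29 and 5.29 in GFP cells, in the order etoposide and mock. Of 5 other plakins, all kept, desmoplakin (Dsp), which anchors keratins to desmosomes, was called higher in p63 cells under both treatments, at 9.63 and 10.02 in p63 cells against 6.09 and 5.71 in GFP cells. Macf1, which links actin and microtubules, differed by 0.77 under etoposide and 1.02 under mock treatment. Plec, Dst and Eppk1 differed by at most 0.51 in size.

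Tgm1 encodes transglutaminase 1, the membrane-bound enzyme that cross-links the envelope. It was dim on every array, at 5.23 with etoposide and 4.62 with mock treatment in p63 cells, against 5.23 and 4.90 in GFP cells. The p63 difference was 0.00 under etoposide and -0.28 under mock treatment. Of 8 other transglutaminase genes measured, Tgm2, the widely expressed tissue transglutaminase, was the 1 kept. Tgm2 read 7.56 and 7.22 in p63 cells against 6.41 and 6.37 in GFP cells, in the order etoposide and mock. Its difference was 1.15 under etoposide, a called value, and 0.84 under mock treatment.

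Ordered by the mean of both p63 differences with dim readings raised, the 6 genes kept ran from Anxa8 (3.18) and Ly6d (2.75) through Sfn (0.88) to Sprr1a (0.30), Ripk4 (0.12) and Evpl (0.08), and the other 4, dim on every array, have no order. The difference between the p63 differences under the 2 treatments, as deposited, was under 0.94 in size for 95% of the genes kept. Neighbours in this order differed by less than 0.94, except Ly6d and Sfn. This size also holds any etoposide response that differs between the lines. It is no replicate error of these means, so it cannot tell which places in the order are firm. As deposited, Ripk4 had a mean of 1.15, above the 1.04 of Sfn.

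The wider programme was examined through 5 lists that covered other envelope precursors, suprabasal and stress keratins, proteases and inhibitors of the cornified layer, lipid barrier genes and transcription regulators of epithelial differentiation. The list of other envelope precursors also held envelope cysteine protease inhibitors and corneodesmosin. Of 130 genes measured, 29 were kept, so most were dim on all arrays. Among the 29, 4 were called higher with p63 under etoposide and 3 under mock treatment, with medians of 0.19 and 0.27, and 0 and 2 were called lower. The shares of all genes kept were 1.38% and 2.42% called higher and 0.514% and 3.76% called lower. The medians of all genes kept were 0.02 and -0.14. Called higher under both treatments were Dmkn, which encodes the secreted epidermal protein dermokine, and the keratins Krt6a and Krt16, which mark stressed and hair follicle epidermis. Each of these was dim on both GFP arrays and was kept only through the p63 arrays. The counts called higher and the medians over the 29 thus partly follow from the filter. Dmkn read 7.11 and 7.15 in p63 cells against 5.08 and 4.73 in GFP cells, in the order etoposide and mock. Its differences were 2.03 and 2.42, or 1.24 and 1.28 with dim readings raised. Krt16 differed by 3.06 and 3.58, or 2.46 and 1.75 with dim readings raised. Krt6a differed by 1.64 and 1.83, or 0.40 and 1.01 with dim readings raised, and closely related keratin 6 genes may share its signal. Of 51 envelope genes measured, 8 were kept, and Dmkn was the 1 called in either p63 comparison. Within the list of proteases, of 23 measured and 3 kept, 0 were called.

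**Figure D3:**
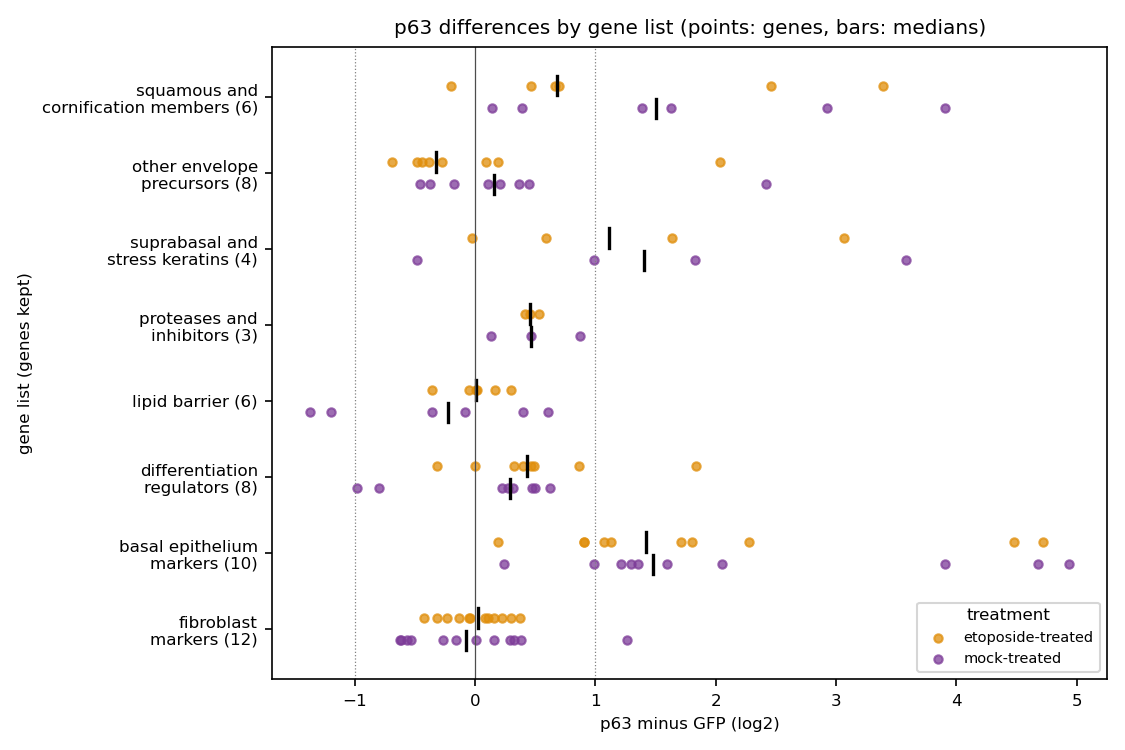
Difference between p63 and GFP cells (log2) for genes kept in each of 8 lists, with etoposide-treated cells in orange above mock-treated cells in purple, 1 point per gene, black bars at the medians and dotted lines at a size of 1. The points of the basal epithelium markers lie mostly beyond 1. Those of the list labelled other envelope precursors lie within it except for Dmkn, a secreted epidermal protein gene (2.03 and 2.42). With dim readings raised, Dmkn differs by 1.24 and 1.28. Genes dim on both GFP arrays, such as Dmkn, Krt5 and Krt14, were kept only through the p63 arrays.

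Genes with the 4-array profile closest to Ly6d and to Anxa8 were sought among the genes kept, by the Euclidean distance between values centred on each gene's own mean. For Ly6d these were Krt16 (0.73), Slc7a8, an amino acid transporter gene (0.86), and Serpinb10, a serpin gene (0.95), where the median distance over genes kept was 3.57. Slc7a8 read 7.78 and 6.69 in p63 cells against 4.50 and 4.20 in GFP cells, in the order etoposide and mock. Serpinb10 was dim on 3 of 4 arrays. For Anxa8 the closest were Krt19, a keratin of simple and follicular epithelium (0.53), Itga6, the alpha chain of the hemidesmosome integrin (0.58), and Cbr2, a carbonyl reductase gene (0.67), where the median distance was 3.40. Krt19 read 10.54 and 10.15 in p63 cells against 7.48 and 6.66 in GFP cells. Itga6 read 10.50 and 10.86 in p63 cells against 8.79 and 6.96 in GFP cells. Cbr2 read 9.92 and 9.49 in p63 cells against 7.21 and 6.48 in GFP cells. With 4 arrays, such likeness is a description of these values alone.

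After etoposide the Ly6d signal was called higher in p63 cells, and in GFP cells only against a dim reading, while Anxa8 was called higher in GFP cells and not in p63 cells, a difference between the lines that could not be tested. In p63 cells 1 of the 10 genes was called higher after etoposide and 0 lower, beside 6.28% of genes kept and 3.5% of all genes called higher and 1.33% of genes kept called lower. In GFP cells 3 of the 10 were called higher and 0 lower, beside 3.52% and 2.04% called higher and 2.12% of genes kept called lower. With dim readings raised the 3 became 1, Anxa8, since Ly6d stood at 0.44 and Ripk4 at 0.00. Of the 10698 genes kept, 289 were then called higher. The medians over the 10 genes were 0.06 in p63 cells and 0.54 in GFP cells, beside -0.03 and 0.04 for all 19938 genes. As deposited, Ly6d was the 1 gene called higher in both lines, where 2.57% of genes kept were so called. The array of mock-treated p63 cells enters the etoposide difference in p63 cells, and the value in GFP cells does not use it. The array of mock-treated GFP cells enters both the p63 difference under mock treatment and the etoposide difference in GFP cells. A low reading on it raises both, and lowers the etoposide difference of p63 cells minus that of GFP cells. The 3 genes called higher in GFP cells, Ly6d, Anxa8 and Ripk4, were all called with p63 under mock treatment, so these are not separate results.

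The Ly6d difference after etoposide was 1.73 in p63 cells, or 3.31-fold, and 1.26 in GFP cells. With the dim mock-treated GFP reading raised, the difference in GFP cells was 0.44, which is not called. Anxa8 differed by -0.23 in p63 cells and by 1.22, or 2.33-fold, in GFP cells, with all readings above the filter. Its GFP reading after etoposide, 8.94, was still below both p63 readings. Ripk4 differed by 0.31 in p63 cells and 1.27 in GFP cells, or 0.23 and 0.00 with dim readings raised. Sfn differed by -0.18 in p63 cells and 0.51 in GFP cells, or 0.20 in GFP cells with the dim reading raised. It was not called after etoposide in either line, and p53 activity was not tested. Trim29 differed by -0.41 in p63 cells and 0.58 in GFP cells.

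Among the envelope genes no etoposide difference reached 1 in size. Sprr1a was higher by 0.68 in p63 cells and 0.35 in GFP cells, and Tgm1 by 0.61 and 0.33. Evpl differed by 0.06 in p63 cells and 0.65 in GFP cells, and Ivl by -0.58 and -0.09. Ppl differed by 0.07 in p63 cells and 0.01 in GFP cells, and its difference in GFP cells turned to -0.11 with arrays centred and -0.16 after cyclic loess. Both etoposide arrays lay above both mock arrays for Sprr1a, Evpl and Tgm1, 3 of the 10 genes, beside 23.8% of genes kept and 19.8% of all genes.

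**Figure D4:**
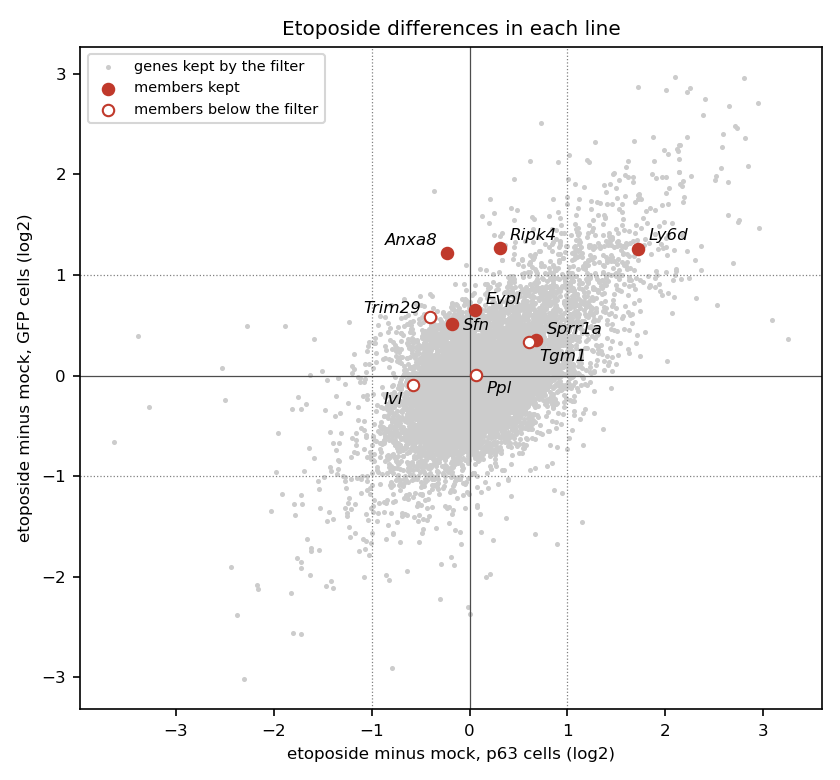
Difference between etoposide and mock treatment (log2) in p63 cells (horizontal) and GFP cells (vertical) for the 10 genes (red, open where dim on all arrays) and the 10698 genes kept (grey), with dotted lines at a size of 1. Ly6d (1.73 and 1.26) lies beyond both lines, and Anxa8 (-0.23 and 1.22) and Ripk4 (0.31 and 1.27) beyond the line for GFP cells. With dim readings raised, Ly6d and Ripk4 differ by 0.44 and 0.00 in GFP cells.

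Between the lines, the etoposide difference (p63 cells minus GFP cells) was -1.45 for Anxa8, the 1 gene of the 10 at which it reached 1 in size, and Anxa8 ranked 22 from the lowest of the genes kept. A value of -1 or lower was seen for 1.09% of genes kept and 2.25% of all genes, and of 1 or higher, which 0 of the 10 reached, for 2.84% of genes kept. It was 0.46 for Ly6d, or 1.29 with dim readings raised. For Ripk4 it was -0.96 as deposited and 0.23 with dim readings raised. Over the 10 genes the median was -0.54, beside -0.02 for all 19938 genes.

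Of the 29 genes kept from the 5 wider lists, 8 were called higher after etoposide in p63 cells and 6 in GFP cells, and 0 were called lower in either, beside 6.28% and 3.52% of genes kept called higher. The medians were 0.47 and 0.37, beside 0.10 and -0.08 for all genes kept. Called in both lines were Nipal4, Grhl3, Zfp750 and St14, where 2.57% of genes kept were called higher in both. Grhl3 and St14 were dim on both mock arrays and were kept only through the etoposide arrays, so their place in this count partly follows from the filter. Nipal4, which is mutated in a form of ichthyosis in humans, read 8.41 with etoposide and 6.18 with mock treatment in p63 cells, against 8.39 and 5.57 in GFP cells. Zfp750, a p63 target that drives terminal differentiation in human keratinocytes, read 9.15 and 6.41 in p63 cells against 7.32 and 5.79 in GFP cells, in the same order. Its etoposide difference was 2.74 in p63 cells and 1.53 in GFP cells. The mock-treated GFP readings of Nipal4 and Zfp750 were dim. With these raised, their etoposide differences in GFP cells were 2.52 and 1.45. Grhl3, a grainyhead-like factor of the epidermal barrier, differed by 1.47 in p63 cells and 2.01 in GFP cells, or 1.38 and 1.69 with dim readings raised. St14, the membrane protease matriptase, differed by 1.41 and 1.13, or 0.88 and 0.47 with dim readings raised. Lynx1, of the Ly6 family, was also called in both lines, with differences of 1.59 in p63 cells and 1.99 in GFP cells.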

How the data were processed

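Per the labels, total RNA was extracted with Trizol, labelled after NuGEN Ovation PicoSL amplification and put on Affymetrix Mouse Gene 1.0 ST arrays, 1 in each of 4 groups taken from the sample titles. Per the submitters' processing notes, the authors ran RMA in Affymetrix Expression Console, and the deposited values are log2 signals. RMA makes probe intensity distributions equal before probes are summarised, and the summarised values still differed between arrays, with an SD over all probe sets between 2.28 and 2.39. The base of the logarithm was taken from the values, which ran from 1.27 to 14.4. Precision is limited by the number of arrays.

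A platform annotation of 2016 gave 1 symbol for 21789 probe sets, several for 1621 and none for 12102. Entrez identifiers matched a RefSeq table (GRCm38.p6) for 21698. Where a gene had more than 1 probe set, the brightest by mean was used. Python 3.11.15 with pandas 2.3.3 and limma 3.58.1 (cyclic loess) were used, and the step that makes the calls was tested on simulated data with known differences, which tests none of the comparisons. All 10 genes were named, with 3 closest profiles for each gene called with p63 under both treatments, list genes called with p63 under both treatments, and relatives in the plakin, transglutaminase and 14-3-3 families. List genes named as dim, or as called after etoposide in both lines, were chosen after their values were seen. The genes and lists were chosen with earlier results of these data known. Alternatives were array centring, cyclic loess, dim readings raised to the filter, the median of probe sets, a filter at the 75th percentile (7.82) or none, and a 1.5-fold threshold.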

Additional observations from a re-analysis of the deposited data

Results flagged for a closer look

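The following genes had differences of opposite sign in the conditions compared. With 1 array per group, none of these differences between groups was tested. After etoposide, Anxa8 differed by -0.23 in p63 cells and 1.22 in GFP cells, which leaves -1.45 between the lines. Sfn differed by -0.18 in p63 cells and 0.51 in GFP cells, which leaves -0.69, and its second probe set gave 0.07 and 0.40, of the same sign. Trim29, dim on all arrays, differed by -0.41 in p63 cells and 0.58 in GFP cells, which leaves -0.98. The same 4 readings give Trim29 a p63 difference of -0.19 under etoposide and 0.79 under mock treatment, again -0.98 apart. Evpl had p63 differences of -0.20 under etoposide and 0.39 under mock treatment, -0.59 apart. Tgm1, dim on all arrays, had p63 differences of 0.00 under etoposide and -0.28 under mock treatment, 0.28 apart.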

How the results depend on the processing

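The calls of Ly6d and Anxa8 in p63 cells under both treatments were made under every alternative run. Raising the threshold for brightness to 7.82 left 2 genes above it, Ly6d and Anxa8, with medians of 2.92 under etoposide and 3.42 under mock treatment for p63 minus GFP, and 0.75 in p63 cells and 1.24 in GFP cells for etoposide minus mock, and with 2 genes called with p63 under mock treatment. As kept by the main filter, the 6 genes had p63 medians of 0.68 and 1.51 and etoposide medians of 0.18 and 0.94 in the same order. Ly6d passed 7.82 only through its p63 arrays, so the larger p63 medians at that filter partly follow from it. All genes kept at 7.82 had p63 medians of 0.04 under etoposide and -0.20 under mock treatment. Without a filter the p63 medians were 0.26 and 0.67 and the etoposide median in GFP cells was 0.54. With dim readings raised, the p63 median under mock treatment was 0.72, the etoposide median in GFP cells 0.40, and the median of the difference of etoposide differences -0.070, against -0.64. Under that setting 1 gene, Anxa8, was called after etoposide in GFP cells, against 3, and 2 genes, Ly6d and Anxa8, by the difference of differences, against 1. Of the 10698 genes kept, 289 were then called higher and 186 lower after etoposide in GFP cells. By the difference of differences, 262 were called higher and 62 lower. At a 1.5-fold threshold 4 genes were called with p63 under etoposide and under both treatments, 2 after etoposide in p63 cells and 4 by the difference of differences. The shares of all genes at 1.5-fold were not computed, so these counts cannot be set against a background. Cyclic loess moved the median p63 difference of all genes kept under mock treatment from -0.14 to 0.00, and their difference of differences from 0.20 to 0.01. Array centring moved their etoposide median in GFP cells from -0.08 to -0.21. Of 200 values of single genes under alternatives, 196 stayed on the same side of 1, 3 no longer reached it and 1 newly did, all 4 with dim readings raised. No paired analysis was possible because each group holds 1 array. Leaving out an array removes a group, so this was not run. How many of the dim readings carry signal from the named gene is limited by brightness over background.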
